A study of Mus musculus with 12 samples.

Results

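Expression of 10 genes of the Notch pathway was followed in retinas that lack *Otx2* in the photoreceptor lineage. The receptors were *Notch1*, *Notch2* and *Notch3*, the ligands were *Dll1*, *Dll3*, *Dll4* and *Jag1*, and the target genes were *Hes1*, *Hes5* and *Hey1*. All probe sets annotated with 1 symbol among these genes were taken, which gave 17 of the 45101 probe sets on the array. The signal did not enter this choice.

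A Notch receptor is bound by a ligand on a neighbouring cell and is then cut by proteases, and the freed intracellular part enters the nucleus, where it joins the DNA-binding protein Rbpj and switches on genes of the Hes and Hey family. Hes proteins are repressors that hold back neuronal genes. In the mouse retina the pathway is known to keep progenitor cells from becoming neurons too early and to favour Müller glia, the glial cells that are born last.

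The 12 arrays (an Affymetrix mouse expression array) hold total RNA of the whole retina in 4 groups of 3 arrays. The *Otx2* CKO groups had the genotype otx2 flox/flox with Crx-Cre+, at P12 and at P1, and the control groups had otx2 flox/flox with Crx-Cre-, at the same ages, where P is the postnatal day. Both genotypes thus carried the floxed *Otx2* alleles, and the controls lacked Cre. Cre was driven by the promoter of *Crx*, a gene of developing photoreceptors, so that *Otx2* was not targeted in all retinal cells. Arrays of a group are named by the experiment number of their titles, 1 to 3. The sources do not state how many animals an array stands for, so p-values measure the spread between these arrays.

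Signals were quantile normalized over the 12 arrays, and log2 changes are on the scale of log2(signal + 16), which understates changes of dim probe sets. Folds are ratios of mean normalized signals. A probe set was tested where the mean was at least 50 in a compared group, and it is said to have passed, risen or fallen where limma's Benjamini-Hochberg adjusted p, over all probe sets tested, was below 0.05. Levels of different probe sets cannot be set against each other. In whole retina, fewer cells of a type and less RNA per cell cannot be told apart.

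The *Otx2* probe set (1425926_a_at) had signals of 96.6, 113.6 and 67.4 in *Otx2* CKO and 938.4, 592.3 and 588.2 in control at P12. At P1 the signals were 376.6, 336.5 and 427.4 in *Otx2* CKO and 901.6, 841.3 and 639.4 in control. No *Otx2* CKO array reached a control array at either age (log2 change -2.72, adjusted p = 5.39e-06 at P12, and -1.02, adjusted p = 0.211 at P1). Whether this probe set lies in the deleted part was not tested. Over all probe sets, arrays of the same group correlated at 0.89 to 0.98. The 8 photoreceptor markers with a probe set all fell at P12, with summed signals of 620 to 1325 in *Otx2* CKO and 25937 to 27551 in control.

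At P12, *Notch1* and *Hes5* were higher and *Jag1* was lower in the *Otx2* CKO retina, each in every probe set of the gene. Of the 17 probe sets 13 were tested, and 4 rose and 3 fell, which is 53.8%, beside 16.5% of all 16989 probe sets tested (7.98% higher and 8.55% lower). The other 4 probe sets (1 each of *Notch2* and *Notch3*, both of *Dll4*) had means below 50 in both groups. With the experiment number within an age as a block, 6 rose and 3 fell, beside 37.8% of all tested that then passed. Of the 13 probe sets 8 reached a mean of 50 in only 1 of the groups, among them 6 of the 7 that passed, so these counts are a description. The median log2 change was 0.42 over the 13 probe sets and 0.07 over all tested. In 7 of the 13 every *Otx2* CKO array lay above every control array, and in 3 every one lay below, beside 13.2% and 12.5% of all tested. With signals as deposited the 4 probe sets that rose became 8, while over all probe sets 75.7% of the calls were then higher in *Otx2* CKO, against 48.3% in the normalized data.

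**Figure D1:**
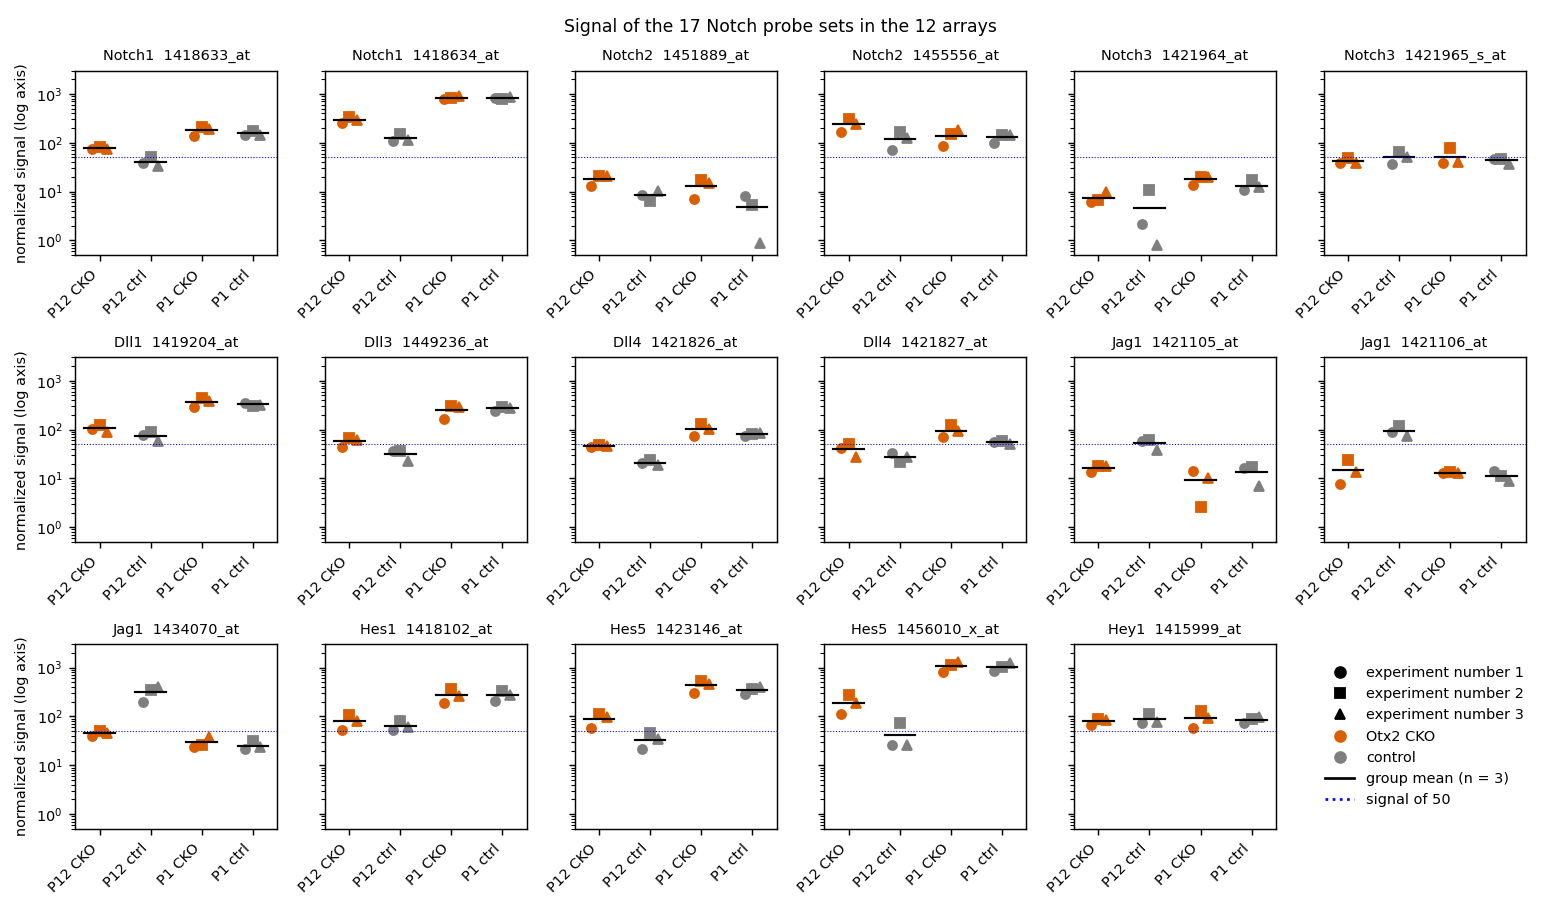
Normalized signal (log axis) of the 17 Notch probe sets in the 12 arrays, with *Otx2* CKO (orange) left of control (grey) at each age, P12 left of P1, symbols for the experiment number and a bar for the mean of 3 arrays. *Jag1* is high only in the P12 control arrays (201.4 to 408.9 for 1434070_at), and *Notch1* and *Hes5* lie higher in *Otx2* CKO than in control at P12 and together with it at P1.

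**Figure D2:**
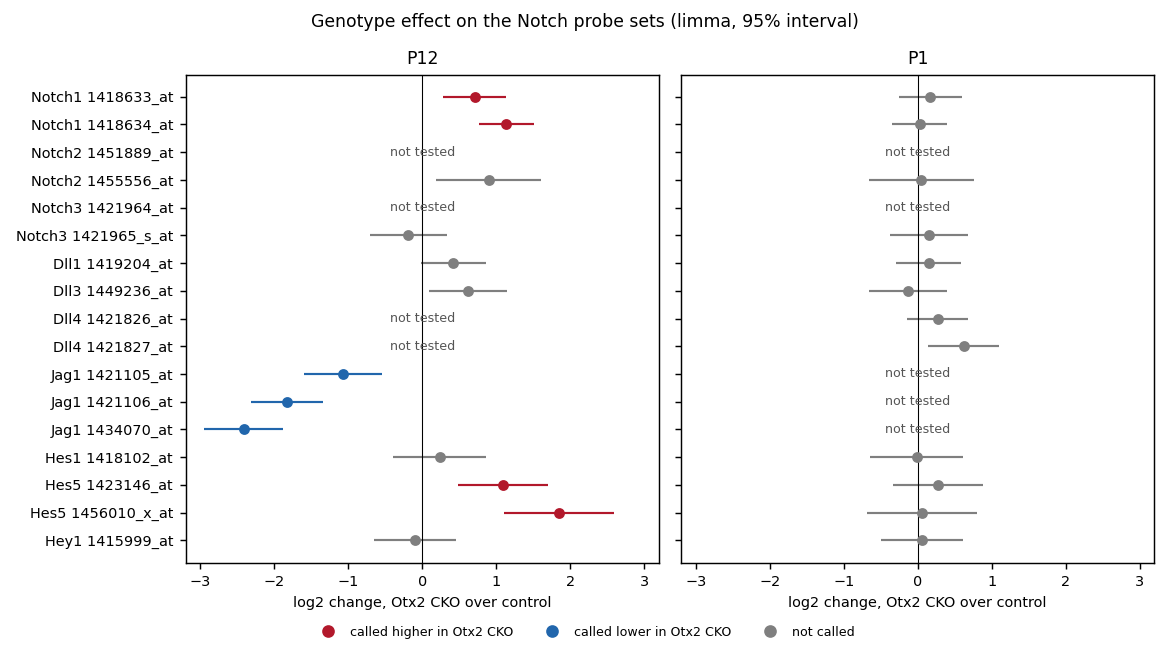
Log2 change of *Otx2* CKO over control for each probe set at P12 (left) and P1 (right), with unadjusted 95% intervals from limma. At P12, 4 probe sets rose (red) and 3 fell (blue), and at P1 none of 12 passed (grey).

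Among the receptors, *Notch1*, which acts in retinal progenitors, rose to 2.34 times its control level at P12. Probe set 1418634_at had signals of 248.5, 342.2 and 294.2 in *Otx2* CKO and 111, 152.5 and 114 in control. The lowest *Otx2* CKO array was thus well above the highest control array. The log2 change was 1.13 ± 0.17 (SE, n = 3 each, adjusted p = 0.000583), it was seen in 3 of 3 pairs of equal experiment number (1.06, 1.09 and 1.25), and it passed in all 25 alternatives tried, with adjusted p of 4.12e-07 to 0.031.

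The second *Notch1* probe set, 1418633_at, moved the same way by less. It had signals of 73.7, 81.5 and 74.6 in *Otx2* CKO and 38.8, 51 and 33.3 in control, again without overlap, and the control mean of 41.0 was under the limit of 50. The log2 change was 0.71 ± 0.20 (SE, n = 3 each, adjusted p = 0.0266). This call was lost without 1 array in 5 cases, with adjusted p of 0.0534 and 0.101 without control arrays 1 and 3, and of 0.0542, 0.0717 and 0.0693 without *Otx2* CKO arrays 1, 2 and 3. Without the filter on low signals it was 0.0654, and with each age fitted alone 0.129, the highest of its 24 alternatives, whose lowest was 5.02e-05.

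*Notch2* 1455556_at had signals of 167.3, 302.6 and 239.9 in *Otx2* CKO and 71.9, 167.3 and 127 in control at P12. The lowest *Otx2* CKO array and the highest control array met to the decimal shown (they count as apart above, by less than that), while each *Otx2* CKO array was above the control array of its own number (log2 differences of 1.06, 0.80 and 0.84). The change of 0.90 ± 0.33 (SE, n = 3 each) did not pass (adjusted p = 0.0837). With the experiment number within an age as a block it passed (adjusted p = 0.000556), as it did without control array 2 (adjusted p = 0.0327), and the range over 25 alternatives was 1.03e-05 to 0.212. The other *Notch2* probe set, 1451889_at, lay between 12.9 and 21.3 in *Otx2* CKO and between 6.3 and 10.5 in control, too low to test.

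*Notch3*, a receptor known from the mural cells of vessels, showed no such difference. Probe set 1421965_s_at, whose suffix marks probes shared by several transcripts, had signals of 37.7, 48.5 and 39.1 in *Otx2* CKO and 36, 64.8 and 51.6 in control. The groups overlapped (log2 change -0.19, 95% interval -0.71 to 0.33, adjusted p = 0.665). Probe set 1421964_at was at 9.6 or less in *Otx2* CKO and 10.8 or less in control.

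Among the ligands, *Jag1* showed the largest change of the 10 genes, and it was a fall. Probe set 1434070_at had signals of 39.5, 51.1 and 44.9 in *Otx2* CKO and 201.4, 355.1 and 408.9 in control at P12. Every *Otx2* CKO array was far below every control array, by 7.12-fold in the means. The log2 change of -2.41 ± 0.25 (SE, n = 3 each, adjusted p = 2.4e-05) passed in all 25 alternatives (adjusted p of 1.04e-20 to 0.00298).

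The other *Jag1* probe sets fell as well. Probe set 1421106_at had signals of 7.8, 23.6 and 13.3 in *Otx2* CKO and 88.5, 116 and 73.9 in control (log2 change -1.83 ± 0.22, SE, n = 3 each, adjusted p = 0.000103), and it passed in all 24 alternatives that tested it. Probe set 1421105_at had signals of 13.6, 18.3 and 18.1 in *Otx2* CKO and 59.6, 62.5 and 38.2 in control (-1.07 ± 0.24, SE, n = 3 each, adjusted p = 0.00906). All 3 probe sets thus separated the groups, with the 3 *Otx2* CKO means at 45.2, 14.9 and 16.7, under the limit of 50. The last call was lost with an offset of 1 (adjusted p = 0.07) and with each age fitted alone (0.0577), and the lowest adjusted p of its 20 alternatives was 3.27e-05.

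*Dll1* encodes a Delta ligand that signals to progenitors from newly born neurons. Neither *Dll1* nor *Dll3* passed at P12, though all their *Otx2* CKO arrays lay above the control arrays. *Dll1* 1419204_at had signals of 103, 121.9 and 91.3 in *Otx2* CKO and 77.3, 90.3 and 58.6 in control. The gap between the groups was narrow (log2 change 0.42, 95% interval -0.03 to 0.86, adjusted p = 0.2, range over 25 alternatives 0.00848 to 0.481). *Dll3* 1449236_at, which encodes a divergent ligand known to inhibit Notch in its own cell, had signals of 43.6, 67.7 and 60.4 in *Otx2* CKO and 35.9, 36.8 and 22.6 in control. Its log2 change was 0.62 ± 0.24 (SE, n = 3 each, adjusted p = 0.112), and it passed once the experiment number within an age was a block (adjusted p = 0.0173, range over 23 alternatives 0.000298 to 0.315).

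*Dll4*, a ligand of retinal neuron precursors and of growing vessels, was too low to test at P12. Probe set 1421826_at had signals of 43.6, 48.5 and 45.7 in *Otx2* CKO and 20.6, 23.7 and 19.1 in control. These groups stood apart, and without the filter on low signals the log2 change was 0.74 ± 0.21 (SE, n = 3 each, adjusted p = 0.0518). Probe set 1421827_at had 41.5, 50.9 and 27.3 in *Otx2* CKO and 33.3, 21.4 and 27.3 in control, which overlapped or met.

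Among the targets, *Hes5* rose and *Hes1* and *Hey1* did not pass. *Hes5* 1456010_x_at had signals of 111.2, 269.4 and 187.1 in *Otx2* CKO and 26.3, 71.9 and 26.5 in control at P12. Array 2 was the highest of its group in both genotypes, and the groups did not overlap. The log2 change was 1.85 ± 0.34 (SE, n = 3 each, adjusted p = 0.00255), which passed in all 25 alternatives (adjusted p of 1.26e-15 to 0.0344). The means differed by about 4.55-fold, a value that rests on a control mean of 41.6, under the limit of 50, since the probe set was tested through its *Otx2* CKO signals. The suffix of this probe set marks probes that may also bind other transcripts.

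The second *Hes5* probe set, 1423146_at, without that suffix, had signals of 58, 113.9 and 97.4 in *Otx2* CKO and 21.2, 45.3 and 33.8 in control. Its log2 change was 1.09 ± 0.28 (SE, n = 3 each, adjusted p = 0.0188), with a control mean of 33.4, again under the limit. The call was lost without 1 array in 4 cases (adjusted p = 0.0546 and 0.051 without control arrays 1 and 3, and 0.0674 and 0.0724 without *Otx2* CKO arrays 2 and 3) and with each age fitted alone (0.09, the highest of 24 alternatives, the lowest being 6.94e-08).

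Rbpj binds DNA at the letters GTGGGAA, and the 250 bases before the start of each gene were searched for them on both strands in RefSeq's promoter table (GRCm38.p6). Of the 10 genes 8 had an entry, with 9 windows, and *Hes1* and *Hey1* were not matched. Only the *Hes5* window held the letters, once at bases -226 to -220 on the minus strand and once at bases -83 to -77 on the plus strand, counted back from the start. The same letters stood at least once in 5.42% of all 32851 windows of this length, and at least 2 times in 0.161%. A match is a description of the sequence, not a site shown to be bound. The *Hes5* and *Jag1* windows are shown because these genes had the largest rise and the largest fall, and capitals mark the matches. They lie at chr4:154960673-154960922 (plus strand) for *Hes5* and chr2:137116521-137116770 (minus strand) for *Jag1*.
Hes5: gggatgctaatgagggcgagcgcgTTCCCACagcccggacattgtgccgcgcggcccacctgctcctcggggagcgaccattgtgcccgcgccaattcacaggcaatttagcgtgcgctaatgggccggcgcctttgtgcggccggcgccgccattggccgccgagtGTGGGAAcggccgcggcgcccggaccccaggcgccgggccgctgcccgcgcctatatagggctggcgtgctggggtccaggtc
Jag1: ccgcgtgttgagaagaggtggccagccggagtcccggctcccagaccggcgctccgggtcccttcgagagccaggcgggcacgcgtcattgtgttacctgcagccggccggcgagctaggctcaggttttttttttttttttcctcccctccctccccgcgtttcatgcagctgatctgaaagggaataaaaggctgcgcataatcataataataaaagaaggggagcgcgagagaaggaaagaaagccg

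*Hes1* 1418102_at, the repressor that acts beside *Hes5* in progenitors and Müller glia, had signals of 52.5, 107.1 and 79.9 in *Otx2* CKO and 52.7, 79.5 and 59.5 in control at P12. The arrays overlapped, and the lowest arrays of both groups lay at the same level. The log2 change was 0.24 (95% interval -0.39 to 0.86, adjusted p = 0.652), so that a rise of the size seen for *Hes5* 1456010_x_at lay outside the interval. *Hey1* 1415999_at, known as a target in vessels, had 65.4, 87 and 86.6 in *Otx2* CKO and 72.6, 111.8 and 78.1 in control, again overlapping (log2 change -0.10, 95% interval -0.66 to 0.45, adjusted p = 0.838).

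**Figure D3:**
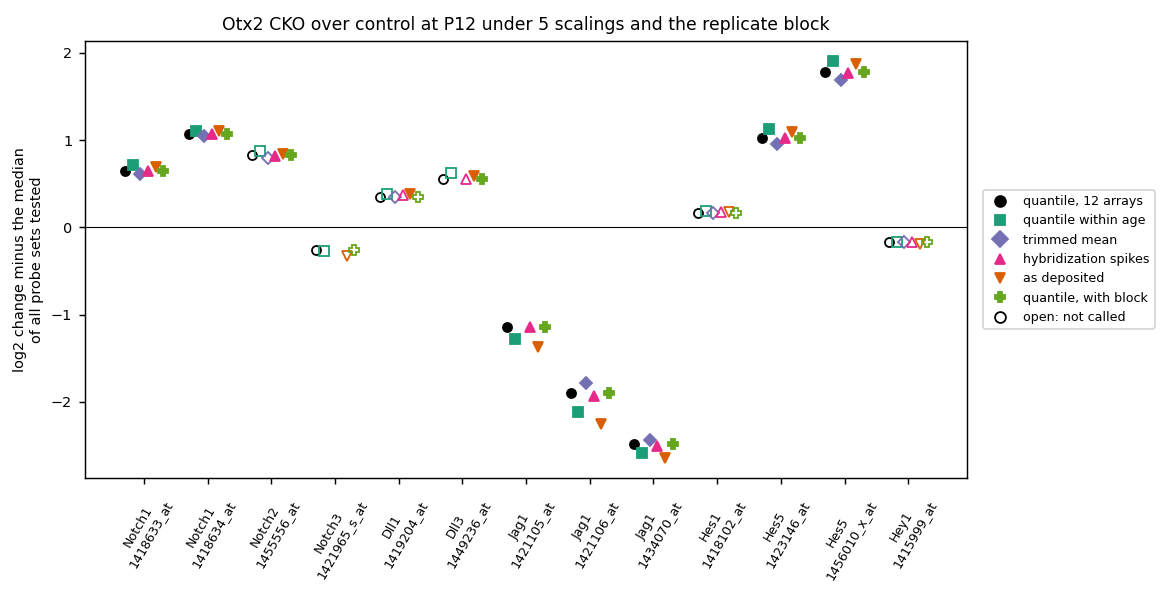
Log2 change of *Otx2* CKO over control at P12 minus the median of all probe sets tested, for each tested probe set under 5 ways of scaling the arrays and with the replicate block (filled symbols passed, open ones did not, and a missing symbol means a mean below 50 under that scaling). The *Notch1*, *Hes5* and *Jag1* probe sets keep their side of 0 and stay filled where tested, while *Notch2*, *Dll1* and *Dll3* change between open and filled.

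Marker genes of several cell types moved with genotype at P12, and their part in these results was not tested. Over all probe sets tested at P12, 7.98% rose and 8.55% fell. In the direction of *Notch1* and *Hes5*, 3 of 10 Müller glia markers tested rose (*Slc1a3*, *Dkk3* and *Crym*) and none fell. The summed signals of the 10 were 10075 to 12070 in *Otx2* CKO and 7444 to 9810 in control. The other 7 did not pass, among them *Glul*, *Vim* and *Clu* (log2 changes of 0.07, 0.19 and -0.10). At P1 *Dkk3* and *Crym* had means of 1459 and 905 in *Otx2* CKO and of 1504 and 909 in control. Of the retinal progenitor markers 4 of 8 reached the limit at P12 and 1 rose (*Sox2*), with summed signals of 786 to 1200 in *Otx2* CKO and 352 to 685 in control. Most of that sum came from *Sox2* and *Lhx2*, while the proliferation markers *Mki67*, *Top2a* and *Cdk1* had means of 21.9, 12.8 and 20.3 in *Otx2* CKO and 3.85, 8.29 and 17.6 in control. Of the amacrine markers 2 of 7 rose (*Slc6a9* and *Slc32a1*), with sums of 5584 to 5639 in *Otx2* CKO and 4317 to 4649 in control. All 6 microglia markers tested rose (sums of 1555 to 2602 in *Otx2* CKO and 527 to 838 in control), as did 2 of 3 astrocyte markers (*Gfap* and *Pdgfra*, sums of 432 to 466 in *Otx2* CKO and 189 to 200 in control). The sums of these 5 lists all lay higher in the *Otx2* CKO arrays, without overlap, as did both *Notch1* and both *Hes5* probe sets.

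Most markers of vessels, which also express *Jag1*, *Dll4*, *Notch3* and *Hey1*, had lower means in *Otx2* CKO at P12, the direction of *Jag1*. This held for 8 of 10 endothelial markers. Of the 10, 3 had every *Otx2* CKO array below every control array and 1 (*Kdr*) had every one above, beside 12.5% and 13.2% of all probe sets tested. Among the 8 were *Pecam1*, *Cdh5*, *Tek*, *Tie1* and *Emcn*, whose means were under 50 in both genotypes and which were not tested. *Tek* hardly differed (22.1 in *Otx2* CKO and 22.5 in control). Of the 5 endothelial markers tested *Esam* fell (means of 53.3 in *Otx2* CKO and 147 in control) and *Kdr* rose (587 in *Otx2* CKO and 293 in control), while *Cldn5* had a log2 change of -0.79 (adjusted p = 0.0526). The endothelial sums, of which *Kdr* made the largest part, were 844 to 1064 in *Otx2* CKO and 722 to 1075 in control. *Kdr* differed from most of its list at P1 too, with means of 372 in *Otx2* CKO and 326 in control. There 8 of the 10 markers had means under 50 in each genotype. Whether the *Kdr* signal came from vessels was not tested.

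Of 9 pericyte and smooth muscle markers 7 had lower means in *Otx2* CKO, 4 of them with every array below (*Acta2*, *Abcc9*, *Kcnj8* and *Des*). Over all probe sets tested 12.5% had every array below. *Kcnj8* (means of 15.7 in *Otx2* CKO and 27.4 in control) and *Des* (8.22 in *Otx2* CKO and 20.1 in control) were too low to test. None of the 4 tested passed. Their sums, of which *Rgs5* made the largest part, were 475 to 661 in *Otx2* CKO and 565 to 1126 in control. The 8 photoreceptor markers given above also fell at P12. Whether vessels or photoreceptors have a part in the fall of *Jag1* was not tested. The same holds for cell types without a marker list here, such as bipolar cells, whose genes the authors also report as lower in *Otx2* CKO.

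At P1 none of the 12 probe sets tested passed, beside 0.22% of all 15885 tested, where no probe set was higher and 35 were lower. At an unadjusted p under 0.05 the count was 1 of the 12, and 194 higher and 210 lower over all. *Notch1* 1418634_at had signals of 792.2, 827.4 and 898.8 in *Otx2* CKO and 816, 791.7 and 864.1 in control, and *Hes5* 1456010_x_at had 795.9, 1132.2 and 1295.1 in *Otx2* CKO and 842.3, 1008.5 and 1227.3 in control. Both pairs of groups overlapped almost wholly, with log2 changes of 0.03 (95% interval -0.35 to 0.40) for *Notch1* and 0.05 (-0.69 to 0.80) for *Hes5* (adjusted p = 0.999 for both). The second probe sets overlapped too, *Notch1* 1418633_at with a log2 change of 0.17 (-0.25 to 0.60) and *Hes5* 1423146_at with 0.28 (-0.33 to 0.89).

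The probe set under that unadjusted limit at P1 was of *Dll4*. Probe set 1421827_at had signals of 71.7, 123.5 and 91.6 in *Otx2* CKO and 56.7, 57.2 and 51.9 in control, and it was the only one of the 12 whose groups did not overlap, beside 5.88% of all probe sets tested with every *Otx2* CKO array above and 3.86% with every one below. Its log2 change was 0.62 ± 0.22 (SE, n = 3 each, adjusted p = 0.999, range over 21 alternatives 0.323 to 1). The other *Dll4* probe set, 1421826_at, had 74.8, 128.8 and 102 in *Otx2* CKO and 72.7, 83 and 84.7 in control, which overlapped (0.27, 95% interval -0.14 to 0.68). *Hes1* had 186, 367.9 and 265.9 in *Otx2* CKO and 205.4, 337.8 and 272 in control, a log2 change of -0.02 (-0.64 to 0.61). The changes of *Notch2*, *Notch3*, *Dll1*, *Dll3* and *Hey1* lay between -0.13 and 0.15.

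The 3 *Jag1* probe sets were low in both genotypes at P1 and were not tested there. The highest array of any of them was at 38 in *Otx2* CKO and at 31.1 in control. Summed Müller glia markers at P1 were 5481 to 5648 in *Otx2* CKO and 5211 to 5861 in control, and summed progenitor markers were 6293 to 7689 in *Otx2* CKO and 7539 to 8074 in control.

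Whether the genotype effect differed between P12 and P1 was tested directly. Of 15 probe sets tested 1 was called higher and 2 were called lower, beside 4.39% of all 18652 probe sets tested (1.28% higher and 3.11% lower). For *Jag1* the effect at P12 was lower than that at P1 by a log2 difference of -2.55 ± 0.35 in 1434070_at (SE, n = 3 a group, adjusted p = 0.000883) and of -1.92 ± 0.31 in 1421106_at (SE, n = 3 a group, adjusted p = 0.0034). Both passed in every alternative that tested them (24 and 23). For *Jag1* 1421105_at the difference was -0.83 ± 0.34 (adjusted p = 0.255).

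For *Notch1* 1418634_at the effect at P12 exceeded that at P1 by 1.11 ± 0.24 (SE, n = 3 a group, adjusted p = 0.0206). This call was lost without 1 array in 6 of 12 cases, namely without P1 control array 1 (adjusted p = 0.0556), 2 (0.0548) or 3 (0.0697), P1 *Otx2* CKO array 2 (0.0563), P12 control array 3 (0.0553) and P12 *Otx2* CKO array 3 (0.0563), and the lowest adjusted p of 24 alternatives was 0.000162. The second *Notch1* probe set differed by 0.54 ± 0.28 (adjusted p = 0.388).

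The difference was 1.79 ± 0.49 for *Hes5* 1456010_x_at (SE, n = 3 a group, adjusted p = 0.0601) and 0.81 ± 0.40 for 1423146_at (adjusted p = 0.355). Neither passed, and with the experiment number within an age as a block both did (adjusted p = 0.000161 and 0.0174, with ranges over 24 alternatives of 1.19e-08 to 0.162 and of 0.000945 to 0.577). The larger of them also passed without P12 control array 2 (0.00992) or P12 *Otx2* CKO array 1 (0.0244). The same block let *Notch2* 1455556_at pass (0.85, adjusted p = 0.0156, against 0.415 without it, range over 24 alternatives 0.00125 to 0.634), so that 4 probe sets in place of 1 were called higher. Over all probe sets tested 18.3% passed with this block, in place of 4.39%.

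The 10 genes did not move together with age. *Notch1*, *Dll1*, *Dll3*, *Dll4*, *Hes1* and *Hes5* were lower at P12 than at P1 in both genotypes, and *Jag1* was higher at P12 in control, relative to the median of all probe sets under every scaling that tested them, while on the scale of the deposited signals 8 of the 9 falls in *Otx2* CKO turned sign. In *Otx2* CKO 12 probe sets were tested, none rose and 9 fell, beside 27.6% of all 17259 tested (14.2% higher and 13.3% lower), and those 9 had no overlap, beside 21% above and 20.7% below. In control 15 were tested, 3 rose and 9 fell, beside 39.1% of all 17646 tested (19.5% higher and 19.7% lower), and the same 12 had no overlap between the ages, beside 24.6% above and 26.2% below. A mean of 50 was reached at only 1 age by 3 of the 12 in *Otx2* CKO and by 10 of the 15 in control. Among them were 2 of the 9 that passed in *Otx2* CKO and 9 of the 12 that passed in control, so these counts are a description. These comparisons share their arrays with the genotype comparisons.

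Markers of retinal progenitors moved the same way with age as the 6 genes that fell. Of 8 tested, 7 fell in *Otx2* CKO (median log2 change -4.00) and 8 fell in control (-4.53). Their summed signals were 786 to 1200 at P12 and 6293 to 7689 at P1 in *Otx2* CKO, and 352 to 685 at P12 and 7539 to 8074 at P1 in control. The part of such cells in the falls of *Notch1*, *Hes5* and the other genes was not tested.

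*Hes5* 1456010_x_at fell the most with age in both genotypes. In *Otx2* CKO it fell to a mean of 189 ± 79.1 at P12, against 1074 ± 255 at P1 (SD, n = 3 each, log2 change -2.46, adjusted p = 0.000224). In control it fell to 41.6 ± 26.3 at P12, against 1026 ± 193 at P1 (SD, n = 3 each, log2 change -4.25, adjusted p = 1.37e-06). In order of mean signal, the 2 P1 groups thus stood highest and overlapped, the P12 *Otx2* CKO came next, and the P12 control was lowest. *Hes5* 1423146_at gave the same order of ages, at -2.11 in *Otx2* CKO and -2.92 in control.

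*Notch1* 1418634_at had the same order of groups. Its mean was 295 ± 46.9 at P12 and 839 ± 54.3 at P1 in *Otx2* CKO (SD, n = 3 each, log2 change -1.47, adjusted p = 5.6e-05), and 126 ± 23.1 at P12 and 824 ± 36.8 at P1 in control (-2.58, adjusted p = 2.8e-07). *Dll3* fell by 1.85 in *Otx2* CKO and by 2.60 in control on the log2 scale. *Dll1* fell by 1.66 in *Otx2* CKO and by 1.93 in control, and *Hes1* fell by 1.59 in *Otx2* CKO and by 1.84 in control. *Dll4* 1421826_at fell by 0.90 in *Otx2* CKO and by 1.37 in control, and 1421827_at fell by 0.99 in *Otx2* CKO and by 0.73 in control. The call for *Dll4* 1421827_at in control (adjusted p = 0.021) was lost without P1 control arrays 1 (0.0602) or 2 (0.0648) or P12 control array 2 (0.0585), and the lowest of 16 alternatives was 0.0147.

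*Jag1* ran against the others. In control, 1434070_at had a mean of 322 at P12, against 25.2 at P1 (log2 change 2.99, adjusted p = 1.65e-06), and 1421106_at and 1421105_at rose by 1.98 and 1.23. In *Otx2* CKO its 3 probe sets stayed under a mean of 50 at both ages. With age in control all 8 photoreceptor markers rose as well, with a median log2 change of 3.64. So did 4 of 5 endothelial, 4 of 4 pericyte and smooth muscle and 6 of 10 Müller glia markers tested. Of the other lists 4 of 7 amacrine, 2 of 3 microglia and 1 of 2 astrocyte markers tested rose. In these lists 2 Müller glia markers and 1 amacrine marker fell. Over all probe sets tested 19.5% rose. The part of any of these cell types in the rise of *Jag1* was not tested, nor was that of cell types without a list, such as bipolar cells. *Notch2* 1455556_at, *Notch3* 1421965_s_at and *Hey1* did not pass with age in either genotype.

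The size and, for many probe sets, the direction of these age changes depended on the scale. The P12 arrays were deposited brighter than the P1 arrays, with 2% trimmed mean signals of 108 to 172 (*Otx2* CKO) and 96.6 to 111 (control) at P12, against 22.0 to 28.0 (*Otx2* CKO) and 28.7 to 30.3 (control) at P1. With signals as deposited, the median log2 change of all probe sets was 1.85 in *Otx2* CKO and 1.45 in control. Relative to that median *Notch1* 1418634_at was at -1.13 in *Otx2* CKO and -2.40 in control, *Hes5* 1456010_x_at was at -2.15 in *Otx2* CKO and -4.14 in control, and *Jag1* 1434070_at was at 2.74 in control. With the arrays scaled on the hybridization spikes the medians were 0.57 in *Otx2* CKO and 0.61 in control. Relative to them *Notch1* was at -1.48 in *Otx2* CKO and -2.55 in control, *Hes5* was at -2.49 in *Otx2* CKO and -4.21 in control, and *Jag1* was at 2.85 in control. Under that scaling *Notch1* 1418633_at and both *Dll4* probe sets no longer passed in *Otx2* CKO (adjusted p = 0.0964, 0.191 and 0.156, each the highest of its alternatives, the lowest being 0.000442, 0.00111 and 0.00356).

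Over the 12 arrays the probe set most like *Notch1* 1418634_at was *Hes5* 1456010_x_at, out of 16518 with 1 symbol and a mean of at least 50 in a group (Pearson r = 0.995). Next came *Cdk4*, a kinase of the cell cycle (0.994), and *Armc10* (0.994), and the 3 most like *Hes5* were *Notch1*, *Cdk4* and *Armc10* (each 0.995). The 12 arrays share their age and genotype groups, and no correlation within an age was computed. *Cdk4* had means of 268 in *Otx2* CKO and 107 in control at P12, and of 724 in *Otx2* CKO and 700 in control at P1. *Dll1* was most like *Fbl*, *E2f1* and *Kif2c* (0.991, 0.990 and 0.990), and *Hes1* was most like *Fbl*, *Cyb5r3* and *Polr3k* (0.994, 0.989 and 0.984).

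Of 48 other genes of the pathway 45 had a probe set, and 36 were tested at P12. Of these 7 rose and 3 fell, or 27.8%, beside 16.5% of all probe sets tested, with a median log2 change of 0.13 against 0.07. The 2 shares are of unlike sets, since each gene was represented by its brightest probe set. At a signal minimum of 100 the share over all probe sets tested was 20.4%. *Dtx1*, a Deltex ubiquitin ligase that binds the receptor, had means of 475 in *Otx2* CKO and 224 in control (log2 change 1.04, adjusted p = 0.00566). *Dner*, a ligand-like membrane protein, had means of 1179 in *Otx2* CKO and 705 in control (0.73, adjusted p = 0.00323), and *Hey2*, a target beside *Hey1*, had 69.1 in *Otx2* CKO and 35.0 in control (0.76, adjusted p = 0.0301).

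The Groucho corepressors, through which Hes proteins repress, were split. *Tle3* rose by 0.90 (adjusted p = 0.00329) and *Tle4* by 0.74 (adjusted p = 0.0201), while *Tle2* changed by -0.75 (adjusted p = 0.0394). *Mfng*, a Fringe sugar transferase that alters which ligands a receptor answers, changed by -0.78 (adjusted p = 0.0238), and *Neurl1a*, which acts on ligands, by -0.70 (adjusted p = 0.0249). *Dtx4* (0.70, adjusted p = 0.0297) and *Nrarp*, a feedback inhibitor and target of the pathway (0.67, adjusted p = 0.0226), also rose, and they are named after their values were seen. None of the 7 proteases tested passed, nor did *Rbpj* (0.49, adjusted p = 0.106).

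**Figure D4:**
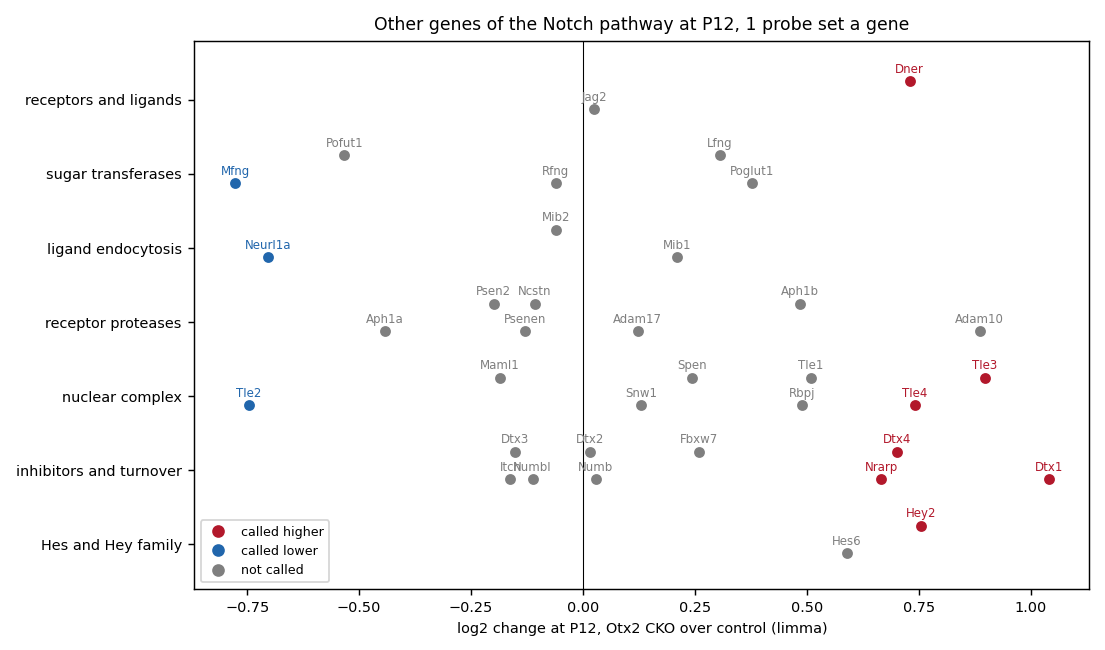
Log2 change at P12 (*Otx2* CKO over control) of the 36 other Notch pathway genes tested, 1 probe set a gene, in rows by role. The 7 genes that rose (red) lie between 0.67 and 1.04 and the 3 that fell (blue) between -0.78 and -0.70.

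These counts moved with the fit. With the experiment number within an age as a block, 12 rose and 5 fell at P12, beside 37.8% of all probe sets tested that then passed. With each age fitted alone 2 rose and none fell, beside 7.01% of all tested. Without P12 *Otx2* CKO array 3 they were 3 and 0, without P12 control array 3 the count that rose was 4, without P12 control array 2 none fell, and without array 1 of either P12 group 1 fell. At P1 none of 35 genes tested passed. The genotype effects differed between the ages for 1 of 38 genes, *Tle3* (1.09, adjusted p = 0.024), and for 8 higher and 2 lower with the block. Over all probe sets tested for this difference 4.39% passed, and 18.3% with the block. No gene was called higher there without any of P1 control arrays 1, 2 and 3, P1 *Otx2* CKO arrays 1 and 3, P12 control array 3 or P12 *Otx2* CKO array 3, left out singly, and 2 were without P12 control array 1.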

How the data were processed

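Total RNA of whole retina was measured on 12 arrays, and the deposited values are linear intensity values, computed by the authors in GeneChip Operating Software (version 1.4). A scaling target is not given in the sources used here, and depth has no meaning for arrays, whose number (3 a group) limits the precision. Groups follow titles, source names and genotype fields, which agree, while free-text descriptions of several samples name the other genotype.

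Control probe sets (64, named AFFX) took no part. Of 45101 probe sets 34958 carried 1 symbol in the platform annotation, 34754 of them with an Entrez ID found in the gene table. Another 932 carried several symbols and 9211 none. The remaining 45037 were quantile normalized and fitted in R 4.3.3 with limma 3.58.1 (lmFit, eBayes with a trend, 1 model of 4 groups, no block) on log2(signal + 16). The median over the 17 Notch probe sets and the counts stand beside those of all probe sets tested. The script was tested on simulated data. For the 48 other genes and the markers the probe set of highest mean signal stood for a gene.

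Alternatives were the signals as deposited, trimmed mean and spike scaling, quantile normalization within each age, offsets of 1 and 50, no filter and a minimum of 100, 2 blocks, each age alone, no trend and leaving out each array. The block together with the signals as deposited was added after seeing the data. Deviations from the group means of control and *Otx2* CKO arrays with the same number correlated at 0.83, 0.88 and 0.57 at P12 and at 0.19, 0.14 and 0.27 at P1. Across ages such correlations ran from -0.08 to 0.67. Those of P1 *Otx2* CKO arrays 1 and 2 with the P12 arrays of their number were 0.62 to 0.67, above all those within P1. The correlations thus do not settle which arrays form pairs. The main fit treated the arrays as unpaired, and the experiment number entered only as a block in alternatives.

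Named were every Notch probe set, *Otx2*, up to 8 other pathway genes with the largest changes that passed in each genotype comparison, the 3 genes most like *Notch1*, *Dll1*, *Hes1* and *Hes5*, and marker genes where few passed, chosen after their values were seen. The genes and lists were chosen with earlier results of these data known.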

Additional observations from a re-analysis of the deposited data

Results flagged for a closer look

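The genotype effect on 3 probe sets differed between the ages by a test of the difference itself. For *Notch1* 1418634_at the log2 effect at P12 minus that at P1 was 1.11. It was -1.92 for *Jag1* 1421106_at and -2.55 for *Jag1* 1434070_at. The *Jag1* signals at P1, between 8.7 and 38 in these 2 probe sets in both genotypes, were under the limit of 50. A fall of *Jag1* at P1 could thus hardly be measured. Groups of 3 arrays were too small to look for single arrays that stand apart.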

How the results depend on the processing

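At P12 the count of Notch probe sets that rose in *Otx2* CKO was 4, and it was 6 with the replicate block within an age, 8 with signals as deposited, 9 with the block added to those, 2 at a minimum signal of 100 and 2 with each age fitted alone. The count that fell was 3, and 1 at the minimum of 100. Leaving out 1 array gave 2 to 5 that rose and 2 to 3 that fell, with 2 that rose without control array 1 or 3 or *Otx2* CKO array 2 or 3. At P1 both counts stayed at 0 throughout, which the low number of calls over all probe sets limits. For the difference of the effects, 1 was called higher and 2 lower. The count called higher was 4 with signals as deposited, 4 with the replicate block within an age, 3 with the block over both ages, 7 with the block and signals as deposited, and 0 to 2 without 1 array, and the count called lower was 1 at the minimum of 100 and 2 without any 1 array. The replicate block within an age changed no other call than those given with it above. Over all probe sets at P12, 1356 rose and 1452 fell, against 3027 and 971 with signals as deposited, 3640 and 2776 with the block within an age, and 407 and 784 with each age fitted alone. At P1 the block gave 13 and 97 in place of 0 and 35.

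Of the 36 other pathway genes, 7 rose and 3 fell at P12. As deposited these were 11 and 0, and 16 and 0 with the block added. The block within an age gave 12 and 5, the block over both ages 11 that rose, each age alone 2 and 0, no filter 0 that fell, the minimum of 100 1 that fell, and leaving out 1 array 3 to 7 and 0 to 2. For the difference of effects, 1 higher became 2 as deposited, 0 with spike scaling, 8 with 2 lower in the block within an age, and 12 with the block and signals as deposited. The block over both ages gave 1 lower, and leaving out 1 array 0 to 2 higher and 0 to 1 lower. Over all probe sets tested at P12, 16.5% passed, against 18.7% as deposited, 37.8% with the block within an age and 7.01% with each age alone. For the difference of effects 4.39% passed, against 4.87% as deposited, 18.3% with the block within an age and 32.9% with the block and signals as deposited.

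For P12 against P1, signals as deposited and quantile normalization within each age both keep the brighter scale of the P12 arrays by construction. In *Otx2* CKO 0 rose and 9 fell, against 9 and 0 as deposited, 8 and 0 within each age, 1 that rose with spike scaling (*Notch2*) and 1 with the block over both ages (*Notch2*), and 0 and 9 without any 1 array. In control 3 rose and 9 fell, against 6 and 4 both as deposited and within each age, 1 that rose at the minimum of 100, and 2 to 3 and 8 to 9 without 1 array. Signs turned as deposited in *Otx2* CKO for *Notch1* (0.99 for 1418633_at and 0.73 for 1418634_at), *Notch3* (1.46), *Dll1* (0.50), *Dll3* (0.19), *Dll4* (0.95 and 0.82), *Hes1* (0.51), *Hes5* 1423146_at (0.034) and *Hey1* (1.74), and in control for *Notch2* (1.42). They turned with quantile normalization within each age in *Otx2* CKO for *Notch1* (0.76 and 0.47), *Notch3* (1.26), *Dll1* (0.25), *Dll4* (0.75 and 0.62), *Hes1* (0.27) and *Hey1* (1.52), and in control for *Notch1* 1418633_at (0.14), *Notch2* (1.65) and *Hes1* (0.012). *Notch3*, *Notch2* and *Hey1* had not passed to begin with.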
